A study of Mus musculus with 24 samples.

Results

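Glutathione transferase transcripts of the alpha, pi, omega and microsomal classes were followed in 24 cultures of mouse tracheal epithelial cells. The members were taken by gene symbol from the deposited table of normalised counts, which holds 25239 genes, and all 10 were found: Gsta1, Gsta2, Gsta3 and Gsta4 of the alpha class, Gstp1 and Gstp2 of the pi class, Gsto1 of the omega class and the membrane-bound Mgst1, Mgst2 and Mgst3. All 10 passed the filter of a mean of at least 10 normalised counts, which kept 13549 genes for testing. The donor mice were wild-type, of the FVB/NJ strain and 7 to 8 weeks old, and their cells differentiated on inserts between air and liquid for 10 to 14 days and then spent 10 days under cigarette smoke or humidified air. Per exposure 2 cigarettes were burned over about 8 minutes. The groups were female smoke, female air, male smoke and male air, with 6 inserts each, and the comparisons ask how each sex's cultures differ between smoke and air.

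Glutathione transferases are enzymes that join glutathione to reactive compounds, among them aldehydes and epoxides of tobacco smoke, and so make them easier to export. The alpha, pi and omega enzymes are soluble, whereas the microsomal enzymes sit in membranes and form a separate protein family. Several alpha and pi genes are known targets of NRF2, a transcription factor that answers to electrophiles and binds antioxidant response elements. Gsta1 is in addition a known target of the aryl hydrocarbon receptor, the sensor of polycyclic aromatic compounds, in mouse liver.

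In the 23 libraries whose whole reads were used, 16038813 to 24485024 reads were assigned to genes. Xist was higher in all 12 female libraries than in any male library. The labels name no donors, so the p-values measure only the spread between inserts, which may be technical, and sex cannot be told apart from cell preparation. Female air insert 1 and female smoke insert 4 stood apart, with gene levels that moved with transcript length. Spearman's rho between a gene's deviation from its group and its transcript length was -0.67 in the first and -0.432 in the second, over 13545 genes. All 10 members have transcripts shorter than the median of 2974 bases, at 602 to 1515 bases, and female air insert 1 was the highest female air library for each of them. Results that rest on these libraries are given with them and over the 22 others. Since these are bulk samples, fewer cells of a type and less RNA per cell cannot be told apart.

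Per kilobase of transcript, Gsto1 and then Gsta4 were the most abundant members in every group. Gsto1 averaged 198019 ± 31461 normalised counts per kilobase in female smoke, 104435 ± 9850 in female air, 63126 ± 21010 in male smoke and 42784 ± 1619 in male air (SD, n = 6 each). Gsta4 averaged 74159 ± 16925 in female smoke, 73972 ± 54178 in female air, 31405 ± 8417 in male smoke and 32724 ± 1539 in male air on the same scale. The ranges of Gsto1 and Gsta4 overlapped in female air and in male smoke, and did not in female smoke and male air. In the female groups Gstp1 was the third, at 4520 ± 1172 in smoke and 6278 ± 4984 in air, where its range overlapped that of Gsta3 at 4351 ± 695 in smoke and 6271 ± 4759 in air. In the male groups Mgst1 was the third, at 5031 ± 1426 in smoke and 9455 ± 1096 in air, overlapping Gsta3 at 3914 ± 646 in smoke and 7040 ± 1413 in air. Gstp2 was the least abundant in all 4 groups, between 73.6 and 115.3 per kilobase on average, and in both air groups its range overlapped that of Gsta1. Gsta1 had rank 9 of 10 in female smoke, female air and male air, and rank 6 in male smoke. Without length correction the 10 together held a median of 1.66% of all normalised counts in female smoke, against 0.997% in female air, and of 0.7% in male smoke, against 0.606% in male air.

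By the deposited annotation, on mm10 (GRCm38), Gsta4, Gsta1 and Gsta2 lie together on chromosome 9, Gsta4 at 78191966 to 78209349, Gsta1 at 78230669 to 78242683 and Gsta2, on the minus strand, at 78331020 to 78347145. Gsta3 and Mgst3 are on chromosome 1, Mgst2 on chromosome 3, Mgst1 on chromosome 6, and Gsto1 and the neighbouring Gstp1 and Gstp2 on chromosome 19. Some members are near copies. The longest reading frames of Gsta1 and Gsta2 were 97.5% identical, and those of Gstp1 and Gstp2 98.1% identical. Of all 100-base windows of their transcripts, 81.8% of Gsta1, 35.0% of Gsta2, 52.8% of Gstp1 and 63.5% of Gstp2 occurred letter for letter in a transcript of another gene. For Gsta1 that was mostly the predicted gene Gm3776, which matched it over 99.7% of the reading frame. How reads were shared among these copies is not given in the sources used here, so the split within each pair is uncertain. The other 6 members shared no 100-base window with any other gene.

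The stretches around the start sites of Gsta1 and Gsta2, of which the first but not the second was called under smoke, of Gsto1, which rose in female smoke, and of Gsta3 and Mgst1, which fell in male smoke, are shown from 150 bases before the start to 30 after it (RefSeq, build GRCm38.p6). Capitals mark the core of the xenobiotic response element, GCGTG, bound by the aryl hydrocarbon receptor, or the core of the antioxidant response element, TGACNNNGC, each on either strand. The positions are chr9:78230519-78230698 on the plus strand, chr9:78347116-78347295 on the minus strand, chr19:47854823-47855002 on the plus strand, chr1:21240435-21240614 on the plus strand and chr6:138140377-138140556 on the plus strand.
Gsta1: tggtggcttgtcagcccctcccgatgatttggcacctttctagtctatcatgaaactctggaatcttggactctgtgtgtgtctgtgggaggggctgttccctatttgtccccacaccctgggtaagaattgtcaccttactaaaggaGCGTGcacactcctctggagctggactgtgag
Gsta2: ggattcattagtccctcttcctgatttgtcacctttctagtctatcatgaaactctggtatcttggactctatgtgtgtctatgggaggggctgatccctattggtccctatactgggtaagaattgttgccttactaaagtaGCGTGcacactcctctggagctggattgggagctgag
Gsto1: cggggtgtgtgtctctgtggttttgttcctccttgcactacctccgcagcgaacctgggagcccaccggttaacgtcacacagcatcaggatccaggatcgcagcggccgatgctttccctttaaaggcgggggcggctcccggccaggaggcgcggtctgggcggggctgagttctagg
Gsta3: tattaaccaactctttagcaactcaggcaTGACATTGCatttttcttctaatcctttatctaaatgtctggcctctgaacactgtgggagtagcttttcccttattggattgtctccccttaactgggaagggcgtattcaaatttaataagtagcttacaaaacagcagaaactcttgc
Mgst1: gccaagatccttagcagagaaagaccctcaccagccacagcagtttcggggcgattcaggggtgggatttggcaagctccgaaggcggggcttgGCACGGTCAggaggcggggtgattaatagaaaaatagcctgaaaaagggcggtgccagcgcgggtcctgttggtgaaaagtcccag
Gsta1 and Gsta2 each held 1 GCGTG, beginning 2 bases before the start in Gsta1 and 7 before it in Gsta2, and their 300-base windows were identical in 74.0% of 311 aligned columns. Gsto1 held neither motif in its window. Gsta3 held TGACNNNGC on the gene's own strand 121 bases before its start, and Mgst1 held it on the opposite strand 56 bases before its start. Windows of 300 bases were found for 9 members, in 10 windows, since Mgst1 has 2. GCGTG was present in 4 of these 10 windows, those of Gsta1, Gsta2, Gstp1 and Mgst3, and in 32.4% of all 32851 windows. TGACNNNGC was present in 2 of the 10, and in 12.4% of all windows. A match is a description of the letters and not a site shown to be bound. Only these letters were sought, so a window with no match is not shown to lack such elements.

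Gsta1, an alpha enzyme that conjugates a broad range of electrophiles, rose under smoke in both sexes. It had 242.3, 378.2 and 662.9 normalised counts in female smoke (lowest, median, highest), against 31.6, 83.7 and 400.1 in female air. The groups overlapped through female air insert 1 at 400.1, where the other 5 female air inserts reached 114.6 at most. In male smoke it had 115.7, 510.6 and 1550, against 29.2, 87.0 and 155.6 in male air, so of the smoke inserts only insert 5, at 115.7, fell within the air range. The log2 fold change on log2(normalised count + 1) was 2.07 ± 0.63 in females (SE, n = 6 each, limma adjusted p = 0.0139) and 2.39 ± 0.63 in males (adjusted p = 0.00918). Over 22 libraries it was 2.42 ± 0.64 in females (adjusted p = 0.00492). Since log2(normalised count + 1) understates low genes, these sizes are on that scale only.

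Gsta2, the near copy, did not pass the test in either sex. It had 365.5, 610.2 and 976 normalised counts in female smoke, against 221.4, 365.2 and 1391 in female air, and 94.9, 278.6 and 825.5 in male smoke, against 117, 209.5 and 332.6 in male air. The groups overlapped in both sexes. The log2 fold change was 0.49 ± 0.52 in females (adjusted p = 0.509) and 0.38 ± 0.52 in males (adjusted p = 0.647). The sum of Gsta1 and Gsta2, which does not depend on how shared reads were split between them, changed by 0.92 ± 0.56 in females (adjusted p = 0.216) and 1.28 ± 0.56 in males (adjusted p = 0.104), and was not called in either. It was fitted over 24 libraries only, with female air insert 1, where Gsta1 had 400.1 and Gsta2 1391 normalised counts. The other female air inserts had 31.6 to 114.6 of Gsta1 and 221.4 to 523.9 of Gsta2. In both air groups Gsta2 made up the larger part of this sum, and the sum leaves out Gm3776, with which Gsta1 shares most. It therefore cannot tell whether the call of Gsta1 depends on how shared reads were assigned.

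Within single libraries the balance of the pair differed between smoke and air. The ratio of Gsta1 to Gsta2 had a lowest value of 0.549, a median of 0.658 and a highest of 0.708 in female smoke, against 0.117, 0.231 and 0.288 in female air. In male smoke it had 1.22, 1.46 and 2.48, against 0.25, 0.419 and 0.522 in male air. Smoke and air did not overlap in either sex, and female air insert 1, at 0.288, lay with the other air inserts. This ratio was chosen after its values were seen and is given with no test. The predicted genes Gm3776 and Gm10639, which lie between Gsta1 and Gsta2 and were singled out after their values were seen, also rose in male smoke, by 1.955 ± 0.652 (adjusted p = 0.0338) and 2.01 ± 0.59 (adjusted p = 0.0176) on the log2 scale. In females Gm3776 had 1.74 ± 0.65 (limma adjusted p = 0.0416), a call that ended in edgeR (1.12, adjusted p = 0.187) and DESeq2 (1.12, adjusted p = 0.133), and Gm10639 had 1.01 ± 0.59 (adjusted p = 0.195). Gm3776 had 276.9 normalised counts in female air insert 1, against 19.45 to 43.66 in the other female air inserts and 73.52 to 271.5 in female smoke. Gm10639 had 48.68 in female air insert 1, against 7.41 to 27.29 in the others and 17.11 to 61.5 in female smoke. Neither is given here over 22 libraries.

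**Figure D1:**
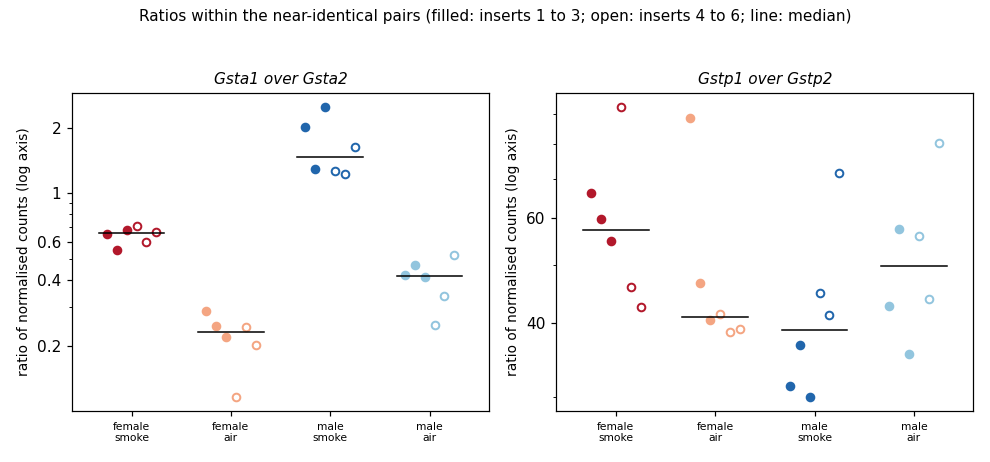
Ratio of normalised counts within each near-identical pair, 1 point per insert on a log axis, filled for inserts 1 to 3 and open for inserts 4 to 6, with a line at the median of 6. The Gsta1 to Gsta2 ratio lies at 0.549 to 0.708 in female smoke and 0.117 to 0.288 in female air, and at 1.22 to 2.48 in male smoke and 0.25 to 0.522 in male air, while the Gstp1 to Gstp2 ratios overlap.

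Gsta3, an alpha enzyme known in mouse liver for conjugating the epoxide of aflatoxin, fell in male smoke. It had 5237, 5540 and 7825 normalised counts in male smoke, against 8406, 10685 and 13317 in male air, with no overlap. The log2 fold change was -0.84 ± 0.24 (adjusted p = 0.0167). In females it had 5250, 6343 and 8209 in smoke, against 6004, 6774 and 24180 in air, where insert 1 supplied the highest value and the next was 7237. The female log2 fold change was -0.32 ± 0.24 (adjusted p = 0.336), and over 22 libraries -0.07 ± 0.13 (adjusted p = 0.68). Gsta4, which is known for conjugating the lipid peroxidation product 4-hydroxynonenal, had 56975, 65524 and 100284 in female smoke, against 38421, 52085 and 175702 in female air. In male smoke it had 18223, 32094 and 37950, against 28758, 31612 and 33008 in male air, a spread in smoke that enclosed every air insert. Its log2 fold change was 0.19 ± 0.27 in females (adjusted p = 0.624) and -0.11 ± 0.27 in males (adjusted p = 0.816). Over 22 libraries the female value was 0.39 ± 0.17 (adjusted p = 0.0636).

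The pi genes did not pass the test in either sex. Gstp1, the main pi enzyme of most mouse tissues, had 2514, 3148 and 4559 normalised counts in female smoke, against 2542, 3255 and 12123 in female air, and 1541, 2231 and 3596 in male smoke, against 2117, 2600 and 3243 in male air. Its log2 fold change was -0.26 ± 0.29 in females (adjusted p = 0.542), 0.06 ± 0.23 over 22 libraries (adjusted p = 0.855), and -0.19 ± 0.29 in males (adjusted p = 0.695). Gstp2 was low throughout, with 37.2, 61.0 and 83.1 in female smoke, against 65.8, 79.0 and 136.9 in female air, and 24.3, 63.9 and 98.2 in male smoke, against 26.3, 51.1 and 91.7 in male air. It had a log2 fold change of -0.57 ± 0.34 in females (adjusted p = 0.209) and 0.13 ± 0.34 in males (adjusted p = 0.822). Smoke and air overlapped for both genes in both sexes. The sum of the pair, which Gstp1 dominates, had -0.26 ± 0.29 in females (adjusted p = 0.53) and -0.18 ± 0.29 in males (adjusted p = 0.708). The ratio of Gstp1 to Gstp2 ran from 42.5 to 92.4 in female smoke, against 38.6 to 88.5 in female air, and from 30 to 71.6 in male smoke, against 35.4 to 80.5 in male air, overlapping in both sexes.

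Gsto1, the omega enzyme, which has a cysteine in its active site and is known for reducing dehydroascorbate and methylated arsenic, rose in female smoke. It had 180400, 236835 and 277427 normalised counts in female smoke, against 113360, 120379 and 144990 in female air. Every smoke insert lay above every air insert, female air insert 1 included. The log2 fold change was 0.91 ± 0.20 (adjusted p = 0.00169) and 0.92 ± 0.20 over 22 libraries (adjusted p = 0.00114). The call ended under quantile scaling, with 0.43 (limma adjusted p = 0.104). In male smoke it had 40643, 72936 and 106463, against 47229, 50530 and 52625 in male air, so that smoke insert 3 lay under all air inserts and the other 5 above them. The male log2 fold change of 0.49 ± 0.20 missed the threshold over 24 libraries (limma adjusted p = 0.0863) and passed it over 22 (0.49 ± 0.18, limma adjusted p = 0.0327), in edgeR (0.535, adjusted p = 0.048) and in DESeq2 (0.537, adjusted p = 0.0141). edgeR and DESeq2 were run without male smoke insert 5, so these fits differ in the inserts as well as in the method.

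Among the microsomal members, Mgst1, a glutathione transferase and peroxidase of the endoplasmic reticulum and outer mitochondrial membrane, fell in male smoke. It had 3988, 6038 and 7964 normalised counts in male smoke, against 9637, 10798 and 13008 in male air, with no overlap. The log2 fold change was -0.95 ± 0.23 (adjusted p = 0.00555). In female smoke it had 1536, 2503 and 3009, against 2314, 3259 and 7050 in female air, which overlapped, with a log2 fold change of -0.57 ± 0.23 (adjusted p = 0.0629) and of -0.37 ± 0.21 over 22 libraries (adjusted p = 0.159). This female difference passed in edgeR (-0.657, adjusted p = 0.0401) and DESeq2 (-0.639, adjusted p = 0.026), and in 9 of 41 alternatives in all. Mgst2, which can make leukotriene C4, had 703.1, 883.9 and 1340 in female smoke, against 568.8, 732.7 and 4252 in female air, and 229.1, 245.4 and 430.2 in male smoke, against 222.8, 298.4 and 344.9 in male air. Mgst3, a microsomal enzyme with glutathione peroxidase activity, had 1206, 1274 and 2155 in female smoke, against 1352, 1446 and 4584 in female air, and 465.4, 767 and 1097 in male smoke, against 647.9, 680.7 and 814.4 in male air. Both overlapped in both sexes. For Mgst2 the log2 fold change was -0.05 ± 0.34 in females (adjusted p = 0.927), 0.27 ± 0.18 over 22 libraries (adjusted p = 0.226), and -0.12 ± 0.34 in males (adjusted p = 0.839). For Mgst3 it was -0.34 ± 0.24 in females (adjusted p = 0.288) and 0.08 ± 0.24 in males (adjusted p = 0.837).

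**Figure D2:**
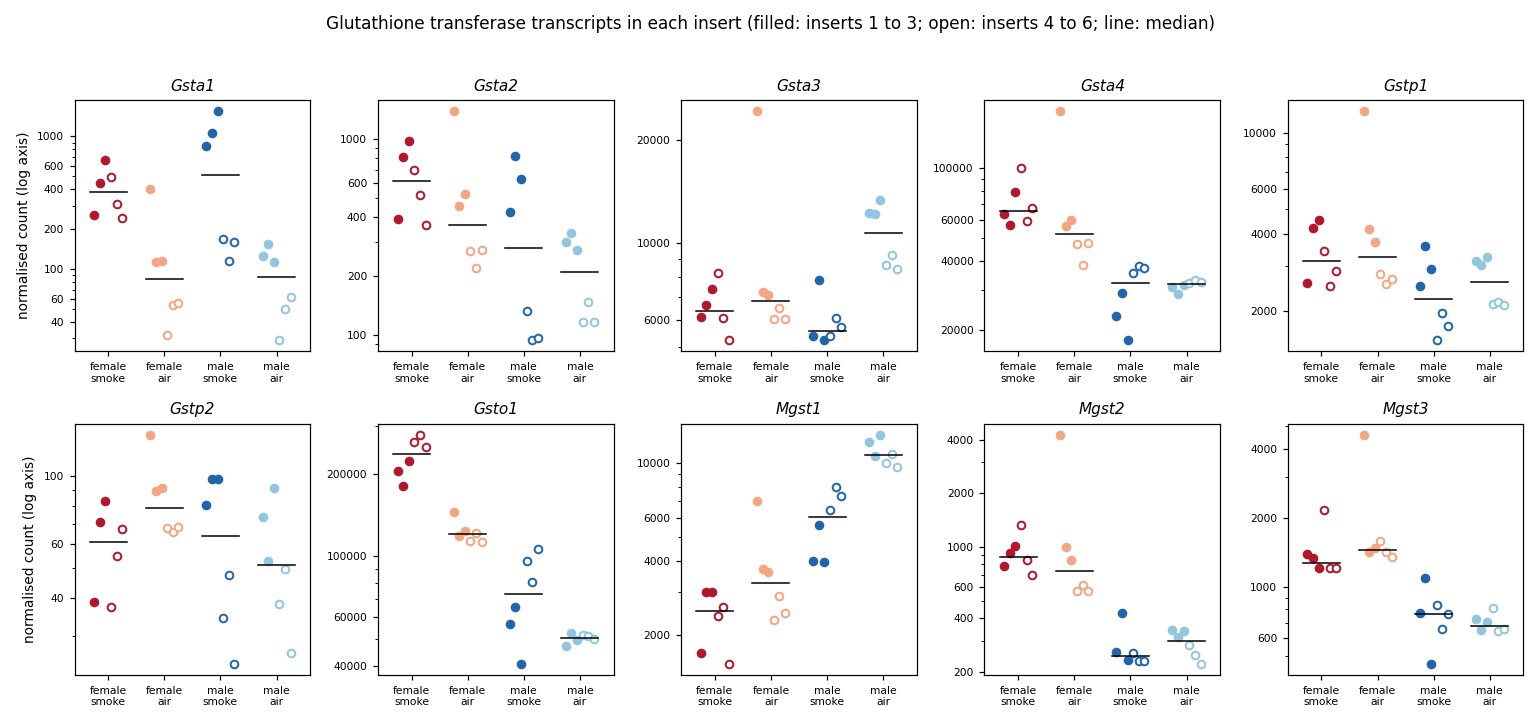
Normalised counts of the 10 members in every insert, 1 panel per gene on a log axis, with female smoke, female air, male smoke and male air from left to right, filled points for inserts 1 to 3, open points for inserts 4 to 6 and a line at the median of 6. Gsto1 in female smoke lies wholly above female air, Gsta3 and Mgst1 in male smoke lie wholly below male air, and the highest female air point in each panel is insert 1.

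Markers of several cell types moved with smoke beside these results. Of 10 club and secretory markers 0 rose and 6 fell in female smoke and 0 rose and 4 fell in male smoke, of 11 ciliated markers 11 fell in females and 0 in males, and of 9 squamous markers 6 rose in females and 8 in males. Of 8 basal markers 1 rose and 1 fell in females and 3 rose and 3 fell in males. Among all genes tested 15.5% rose and 19.3% fell in females, and 9.76% rose and 12.2% fell in males. The summed level of 9 squamous markers ran from 303505 to 413689 normalised counts in female smoke, against 136527 to 284563 in female air. In male smoke it ran from 21965 to 54632, against 5586 to 11770 in male air, where Sprr2d was at 0. The summed level of 10 club and secretory markers ran from 67359 to 235888 in female smoke, against 201841 to 611686 in female air, and from 110793 to 369223 in male smoke, against 510287 to 813722 in male air. The 11 ciliated markers found summed to between 327.2 and 18185 in female smoke, against 16755 to 37410 in female air, and to between 512.3 and 6428 in male smoke, against 5031 to 9126 in male air. The 8 basal markers summed to between 247846 and 408321 in female smoke, against 167621 to 268558 in female air, and to between 127521 and 259593 in male smoke, against 176207 to 219456 in male air. Of 8 fibroblast markers, which summed to between 25.1 and 176.2 in female smoke, against 302 to 1562 in female air, and to between 40.5 and 144 in male smoke, against 227 to 500.3 in male air, Lum was at 0 in both smoke groups. The 7 goblet markers summed to between 414.2 and 1604 in female smoke, against 840.1 to 3169 in female air, and to between 154.6 and 430.1 in male smoke, against 257.2 to 334.6 in male air. Among 6 leukocyte markers Adgre1 was at 0 in every group but male smoke, and their sums of 4161 to 39430 in female smoke, against 32373 to 130613 in female air, and of 5614 to 44186 in male smoke, against 30273 to 40494 in male air, were carried by Lyz2, which some lung epithelial cells also make. The part of these cell types in the results on the members was not tested.

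Counted together, 2 of the 10 members rose and 0 fell in female smoke, where 15.5% of all 13549 genes tested rose and 19.3% fell. In male smoke 1 rose and 2 fell, where 9.76% of all genes rose and 12.2% fell. With 10 members, the shares that rose and the male share that fell are near the background. The median log2 fold change was -0.15 over the members and -0.003 over all genes in females, and -0.011 over the members and -0.006 over all genes in males. In female smoke 1 member, Gsto1, did not overlap with air, against 12.5% of all genes, and in male smoke 2 members did not, against 25.2% of all genes. Over 22 libraries Gsta1 and Gsto1 did not overlap in females, against 28.2% of all genes. In that fit 2 members were called in females, against 45.7% of genes (with 0.78 ± 0.535 for Gsta2, -0.31 ± 0.36 for Gstp2 and -0.19 ± 0.14 for Mgst3, none called), and 4 in males, against 47.2% of genes. At an unadjusted p under 0.05 over 24 libraries, 3 members passed in females, against 43.9% of genes, and 4 in males, against 34.8% of genes. By edgeR and by DESeq2, run without male smoke insert 5, 3 members were called in females, against 34.5% and 38.3% of genes. In males 4 were called, against 22.8% and 27.9% of genes.

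**Figure D3:**
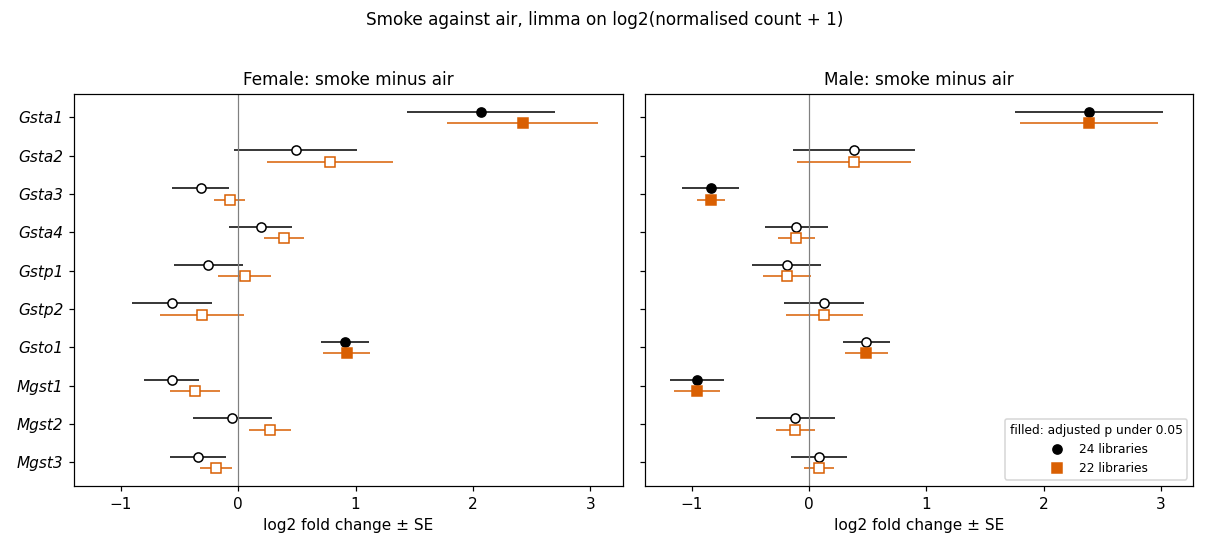
Log2 fold change of each member, smoke minus air, with its SE, for females on the left and males on the right. Circles are the fit on 24 libraries, squares the fit on 22, and filled symbols mark an adjusted p under 0.05: Gsta1 and Gsto1 lie right of 0 in females, and Gsta1 right and Gsta3 and Mgst1 left of 0 in males, where Gsto1 is filled on 22 libraries only.

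The response of females minus that of males was called for 0 of the 10 members, with limma adjusted p of 0.586 or above and 0 members at an unadjusted p under 0.05, where 1.03% of all genes were called. For Gsta1 the difference was -0.32 ± 0.89 on the log2 scale (adjusted p = 0.939), for Gsto1 0.42 ± 0.29 (adjusted p = 0.592) and for Gsta3 0.52 ± 0.35 (adjusted p = 0.586). Over 22 libraries Gsta3 was called at 0.77 ± 0.18 (adjusted p = 0.0133), where 6.2% of all genes were called. So a difference in response between the female and male cultures was called for Gsta3 over 22 libraries and not over 24. In the authors' deposited table for females, its sign turned to smoke over air, Gsta1 had a log2 fold change of 1.4 (adjusted p = 0.012) and Gsto1 0.92 (adjusted p = 1.87e-10), and these 2 members were the ones called. In the authors' deposited table for males the called members were Gsta1 at 1.68 (adjusted p = 0.000258), Gsta3 at -0.81 (adjusted p = 2.68e-07), Mgst1 at -0.86 (adjusted p = 4.48e-06) and also Gsto1 at 0.55 (adjusted p = 0.00969).

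In air, where no smoke is involved, the female and male cultures had different levels of 5 members. Gsto1 was higher in female than in male air by 1.28 ± 0.20 on the log2 scale (adjusted p = 2.34e-05), Mgst2 by 1.71 ± 0.34 (adjusted p = 0.000296), Mgst3 by 1.33 ± 0.24 (adjusted p = 0.000109) and Gsta4 by 0.96 ± 0.27 (adjusted p = 0.00679), whereas Mgst1 was lower (-1.69 ± 0.23, adjusted p = 4.24e-06). Among all genes 20% were higher and 19% lower in female air. The 6 female and 6 male air inserts did not overlap for any of these 5 members, against 33.2% of all genes. Mgst1 thus had 2314 to 7050 normalised counts in female air, against 9637 to 13008 in male air. Over 22 libraries the sizes were 1.24 for Gsto1, 1.28 for Mgst2, 1.05 for Mgst3, 0.66 for Gsta4 and -1.90 for Mgst1, all called, and Gsta3 was called too, at -0.68 ± 0.13 (adjusted p = 0.000121), where 55.8% of all genes were called. By edgeR and by DESeq2 7 members were called, with Gsta2 and Gstp1 beside the 5, against 41.1% and 44.2% of all genes. The authors' deposited table for female and male air also called these 5, and Gsta2 at 1.17 (adjusted p = 0.0176).

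Inserts 4 to 6 differed from inserts 1 to 3 of the same group for several members, and the log2 differences of greatest size among the 10 members and 4 groups were those of Gsta1 and Gsta2 in male smoke. The labels do not say what the insert number stands for, and this split was chosen with results of these data known, so the calls describe these inserts. Gsta1 had 168.7, 115.7 and 158.7 normalised counts in male smoke inserts 4, 5 and 6, against 852.4, 1067 and 1550 in inserts 1, 2 and 3. Gsta2 had 133.2, 94.9 and 97.2 in inserts 4, 5 and 6, against 424, 825.5 and 624.2 in inserts 1, 2 and 3. Neither pair of ranges overlapped, and the log2 difference was -2.935 ± 0.441 for Gsta1 (adjusted p = 0.000858) and -2.48 ± 0.37 for Gsta2 (adjusted p = 0.000804). Their sum had -2.77 ± 0.37 (adjusted p = 0.000305). Gstp2 had 34.4, 47.5 and 24.3 in inserts 4, 5 and 6, against 80.4, 98.2 and 97.9 in inserts 1, 2 and 3, a difference of -1.40 ± 0.32 (adjusted p = 0.0152).

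Gsto1 went the other way in the same libraries. It had 95943, 80503 and 106463 normalised counts in male smoke inserts 4, 5 and 6, against 56877, 65369 and 40643 in inserts 1, 2 and 3, a log2 difference of 0.815 ± 0.205 (adjusted p = 0.0255). Gsta4 and Mgst1 were likewise wholly above in inserts 4 to 6 but did not pass the test, at 0.67 ± 0.31 (adjusted p = 0.259) and 0.69 ± 0.25 (adjusted p = 0.127). In all, 4 of 10 members were called between the insert sets of male smoke, against 5.87% of all genes, and 7 did not overlap, against 33.2% of all genes. Over 22 libraries, where the removed female inserts no longer enter the estimate of spread, 7 were called, against 25.4% of all genes. The squamous markers summed to 21965 to 29691 in male smoke inserts 4 to 6, against 37203 to 54632 in inserts 1 to 3, and the club and secretory markers to 264411 to 369223, against 110793 to 156277. Of 9 squamous markers 0 were called higher and 1 lower in inserts 4 to 6, and of 10 club and secretory markers 3 higher and 0 lower. The goblet sums, at 384.6 to 430.1 against 154.6 to 253, and the leukocyte sums, at 31180 to 44186 against 5614 to 23682, did not overlap either. The ciliated, basal and fibroblast sums overlapped. Of 8 NRF2 marker genes 0 were called higher and 5 lower in inserts 4 to 6. Among all 13549 genes tested 545 were called higher and 250 lower there. The part of these markers in the differences between the insert sets was not tested.

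In the air groups most members also had lower values in inserts 4 to 6. In female air Gsta1 had 31.6 to 55.0 normalised counts in inserts 4 to 6, against 112.3 to 400.1 in inserts 1 to 3, a log2 difference of -1.91 ± 0.44 (adjusted p = 0.0146). Gsta2 had -1.45 ± 0.37 (adjusted p = 0.0266), Gstp1 -1.10 ± 0.30 (adjusted p = 0.0387) and Mgst2 -1.39 ± 0.40 (adjusted p = 0.0468). These 4 called members stand against 5.02% of all genes, and 8 of 10 did not overlap, against 34.9% of all genes. Female air insert 1 belongs to inserts 1 to 3 here, and over 22 libraries 2 of the 4 calls held, Gsta1 at -1.30 ± 0.37 (adjusted p = 0.0384) and Mgst2 at -0.66 ± 0.19 (adjusted p = 0.043), where 6.82% of all genes were called. The call of Mgst2 passed in 9 of 29 alternatives. In male air 7 members did not overlap between the insert sets, 6 lower and Gsta4 higher in inserts 4 to 6, against 33.5% of all genes, and Gsta1, at 29.2 to 61.4 in inserts 4 to 6 against 112.6 to 155.6 in inserts 1 to 3, had -1.52 ± 0.44. No member was called there by limma (lowest adjusted p = 0.696, 3 members at an unadjusted p under 0.05), and 0.0148% of all genes were. In female smoke 1 member did not overlap, Gsto1, against 16.3% of all genes, and 0 were called (lowest adjusted p = 0.302, 0 members at an unadjusted p under 0.05), against 1.03% of all genes.

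**Figure D4:**
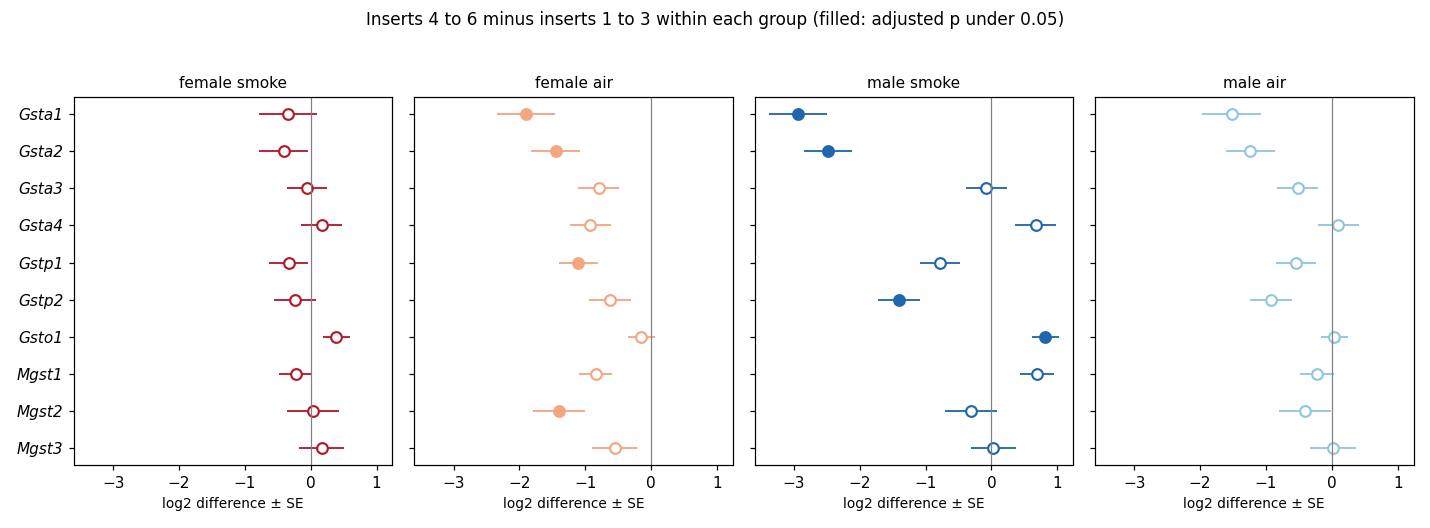
Log2 difference of each member between inserts 4 to 6 and inserts 1 to 3 of the same group, with its SE, in 1 panel per group, filled where the adjusted p was under 0.05. In male smoke Gsta1 at -2.935, Gsta2 at -2.48 and Gstp2 at -1.40 lie left of 0 and Gsto1 at 0.815 right of it, and in female smoke all 10 lie between -0.41 and 0.38.

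In the fit over all inserts, Gsta1 rose under smoke within each set of inserts. In inserts 4 to 6 its log2 fold change was 2.85 ± 0.44 in females (adjusted p = 0.000116) and 1.68 ± 0.44 in males (adjusted p = 0.0362), and in inserts 1 to 3 it was 1.29 ± 0.44 in females (adjusted p = 0.0484) and 3.095 ± 0.441 in males (adjusted p = 5.99e-05). Gsto1 rose in females in both, by 1.18 ± 0.205 in inserts 4 to 6 (adjusted p = 0.000333) and by 0.65 ± 0.205 in inserts 1 to 3 (adjusted p = 0.036). Fitted on inserts 1 to 3 alone, neither female rise was called (limma adjusted p = 0.126 for Gsta1 and 0.144 for Gsto1). Over 22 libraries female inserts 1 to 3 had 1.89 ± 0.365 for Gsta1 (adjusted p = 0.00195) and 0.73 ± 0.18 for Gsto1 (adjusted p = 0.00861). In males Gsto1 rose in inserts 4 to 6 (0.88 ± 0.205, limma adjusted p = 0.0192) and had 0.10 ± 0.205 in inserts 1 to 3 (limma adjusted p = 0.764). Gsta2 rose in female inserts 4 to 6 (1.01 ± 0.37, adjusted p = 0.0393) and had -0.03 ± 0.37 in female inserts 1 to 3 (adjusted p = 0.957). In males it had -0.24 ± 0.37 in inserts 4 to 6 (adjusted p = 0.908) and rose in inserts 1 to 3 (1.004 ± 0.369, adjusted p = 0.0486). Mgst1 had -0.26 ± 0.25 in female inserts 4 to 6 (adjusted p = 0.44) and -0.50 ± 0.25 in male inserts 4 to 6 (adjusted p = 0.363). In inserts 1 to 3 it fell in both sexes, with -0.88 ± 0.25 in females (adjusted p = 0.0238) and -1.41 ± 0.25 in males (adjusted p = 0.000444). Gsta3 had -0.62 ± 0.31 in male inserts 4 to 6 (adjusted p = 0.35) and fell in male inserts 1 to 3, with -1.06 ± 0.31 (adjusted p = 0.015), a call that ended when inserts 1 to 3 were fitted alone (adjusted p = 0.0818). Over 22 libraries its fall in male inserts 4 to 6 was called as well (adjusted p = 0.002).

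In females 3 members were called in inserts 4 to 6, where 35.7% of all genes were called, and 3 in inserts 1 to 3, where 18.2% were. In males 2 were called in inserts 4 to 6, where 3.82% of genes were called, and 4 in inserts 1 to 3, where 28.1% were. The smoke response of inserts 4 to 6 minus that of inserts 1 to 3 was called for 0 members in females (limma, lowest adjusted p = 0.143, 3 members at an unadjusted p under 0.05), against 1.23% of all genes. Over 22 libraries it was also called for 0 (limma, lowest adjusted p = 0.426, 0 members at an unadjusted p under 0.05), against 2.47% of all genes. In males it was called for 0 as well (limma, lowest adjusted p = 0.246, 4 members at an unadjusted p under 0.05), against 0.679% of all genes. Over 22 libraries 3 members were called there in males, Gsta2 at -1.24 ± 0.39 (adjusted p = 0.0462), Gsto1 at 0.78 ± 0.23 (adjusted p = 0.0355) and Mgst1 at 0.915 ± 0.291 (adjusted p = 0.0492), against 11.8% of all genes. A different response in the insert sets was thus not shown over 24 libraries for any member. The female call of Mgst1 in inserts 1 to 3 was lost over 22 libraries (adjusted p = 0.0772).

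Other genes of the glutathione system were counted over lists of known members. Of all genes tested, 15.5% rose and 19.3% fell in female smoke, and 9.76% rose and 12.2% fell in male smoke. The median log2 fold change over all genes was -0.003 in females and -0.006 in males. Among 15 further glutathione transferases, 13 were tested, of which 0 rose and 5 fell in female smoke and 1 rose and 8 fell in male smoke, with a median log2 fold change of -0.51 in females and -0.43 in males. The theta enzyme Gstt1 fell, with a log2 fold change of -1.64 ± 0.32 in females (adjusted p = 0.000554) and -2.16 ± 0.32 in males (adjusted p = 5.58e-05). The mu enzyme Gstm2 averaged 953 ± 353 normalised counts in female smoke and 1947 ± 989 in female air, and 2445 ± 677 in male smoke and 8801 ± 955 in male air (SD, n = 6 each). It fell, with a log2 fold change of -0.97 ± 0.27 in females (adjusted p = 0.00694) and -1.88 ± 0.27 in males (adjusted p = 3.67e-05). Of the 2 tested of 3 other proteins of the microsomal family, leukotriene C4 synthase Ltc4s fell in females, with a log2 fold change of -1.23 ± 0.45 (adjusted p = 0.0351) and had 0.57 ± 0.45 in males (adjusted p = 0.384). Ltc4s was low, averaging 10.3 ± 7.76 normalised counts in female smoke and 21.7 ± 10.5 in female air. It averaged 14.8 ± 6.96 in male smoke and 9.73 ± 5.67 in male air. Of 6 glutathione peroxidases 1 fell in females, the secreted Gpx3 at -1.27 ± 0.35 (adjusted p = 0.00813), and 0 were called in males by limma, where Gpx3 had -0.815 ± 0.353 (adjusted p = 0.101).

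Of 10 genes of glutathione synthesis and recycling, 5 rose and 1 fell in female smoke and 2 rose and 1 fell in male smoke. These counts and those below stand beside 15.5% of all genes higher and 19.3% lower in females. The shares in males were 9.76% and 12.2%. Chac1, which breaks glutathione down in the cytosol, rose in females by 2.26 ± 0.46 (adjusted p = 0.000825) and had 0.50 ± 0.46 in males (adjusted p = 0.465). Oplah, the 5-oxoprolinase, fell, with a log2 fold change of -0.78 ± 0.21 in females (adjusted p = 0.00652) and -1.53 ± 0.21 in males (adjusted p = 2.95e-05). Of 17 genes that export conjugates or trim them to mercapturates, 14 were tested, of which 0 rose and 5 fell in females and 1 rose and 8 fell in males. The gamma-glutamyltransferase Ggt5 fell in females, with a log2 fold change of -1.98 ± 0.34 (adjusted p = 0.000219) and had -0.865 ± 0.341 in males (adjusted p = 0.072), and its relative Ggt7 fell, with a log2 fold change of -1.23 ± 0.45 in females (adjusted p = 0.0372) and -1.78 ± 0.45 in males (adjusted p = 0.00678). Both were low. Ggt5 averaged 10.6 normalised counts in female smoke, 47.8 in female air, 17.0 in male smoke and 32.6 in male air. Ggt7 averaged 7.45 in female smoke, 14.3 in female air, 21.5 in male smoke and 74.5 in male air. Of 8 NRF2 marker genes 4 rose and 0 fell in females and 2 rose and 0 fell in males. Among them the quinone reductase Nqo1 rose in females by 1.16 ± 0.33 (adjusted p = 0.00919) and had 0.89 ± 0.33 in males (adjusted p = 0.0568), and the cystine transporter Slc7a11 had 0.65 ± 0.42 in females (adjusted p = 0.244) and rose in males by 1.19 ± 0.42 (adjusted p = 0.0455). Of 7 regulators 2 rose in females and 1 in males. Ahrr, the repressor induced by the aryl hydrocarbon receptor, rose by 3.22 ± 0.50 in females (adjusted p = 7.7e-05) and 3.37 ± 0.50 in males (adjusted p = 6.03e-05), and Nfe2l2, which encodes NRF2, rose in females by 0.39 ± 0.11 (adjusted p = 0.00965) and had 0.08 ± 0.11 in males (adjusted p = 0.644).

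The members did not share 1 pattern over the libraries. As a description over 24 libraries, which share groups, insert sets and the length trend, the gene most like each member among 11833 with a mean of at least 50 was taken by Pearson's r of the log2 values. Gsta1 was most like the predicted gene Gm3776 (r = 0.969) and, among named genes, the S-formylglutathione hydrolase Esd (r = 0.918), and Gsta2 was most like the carbonyl reductase Cbr3 (r = 0.881). Gsta3 was nearest to Egln2 (r = 0.923), Gsta4 to Stx19 (r = 0.955), Gstp1 to Tmem179b (r = 0.917) and Gstp2 to Gstp1 (r = 0.737). Gsta1 and Gm3776, and Gstp2 and Gstp1, are near copies, so their r cannot be told apart from an effect of shared reads. Gsto1 was nearest to Galnt12 (r = 0.962), Mgst1 to Rasl11a (r = 0.972), Mgst2 to Tmem134 (r = 0.949) and Mgst3 to Pycard (r = 0.955). Over 22 libraries Esd (r = 0.929), Cbr3 (r = 0.89) and Gstp1 (r = 0.791) stayed nearest to Gsta1, Gsta2 and Gstp2. The 7 other members were nearest to other genes, namely Gsta3 to Aldh1a7 (r = 0.9), Gsta4 to Rab27a (r = 0.966), Gstp1 to Tsku (r = 0.855), Gsto1 to Reep4 (r = 0.97), Mgst1 to Chrm3 (r = 0.978), Mgst2 to Dsc3 (r = 0.955) and Mgst3 to Bcl11b (r = 0.961).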

How the data were processed

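RNA of 24 inserts was sequenced, 6 in each of 4 groups. The authors deposited normalised counts per gene, a signal that they made with DESeq2. Dividing by the smallest step gave whole reads for 100% of values in all 24 libraries, within 0.001 reads. Those of male smoke insert 5, whose step was 0.989, were not used, which left 23 libraries. HTSeq, DESeq2, Trimmomatic 0.38.0, FastQC 0.11.9 and the builds GRCm38 and mm10 appear in the submitters' processing notes. For aligner and strandedness nothing is given in the sources used here. The authors' deposited tables hold log2 fold changes with standard errors and an adjusted p-value, per the file headers, whose direction, read from the values, was turned so that smoke and female come out on top. The position columns of the deposited annotation are start and end on the chromosome.

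Genes with a mean of at least 10 were tested with limma 3.58.1 (R 4.3.3, eBayes with trend, two-sided) on log2(normalised count + 1), 1 term per group, or per group and insert set of 3, with calls made where the p adjusted by Benjamini-Hochberg was under 0.05 over all 13549 genes. On simulated data for the female comparison over 13549 genes, 97 of 100 changes of 1 on the log2 scale and 100 of 100 of 2 were recovered, with 7 false calls. The simulation gave every gene the same dispersion and held no length trend and no insert sets. It therefore does not show how often such changes would be recovered for the members. edgeR 4.0.16 and DESeq2 1.42.0 were run on the whole reads of 23 libraries, without male smoke insert 5. edgeR called 1907 genes higher and 2771 lower in female smoke and 1483 higher and 1611 lower in male smoke. Both count methods, other scalings, filters, pseudocounts and each library left out were alternatives. Sequences were aligned with Biopython 1.88. Besides the members, the 2 called genes of each pathway list with the largest change and the gene most like each member are named. The members, lists and tests were chosen with earlier results of these data known.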

Additional observations from a re-analysis of the deposited data

Results flagged for a closer look

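The 40 sets of 6 values, 1 for each member and group, were examined on log2(normalised count + 1). A library was flagged if its distance to the nearest other value, as a share of the set's range, was over Dixon's critical value. On that scale 9 sets held such a library, where chance gives about 1 in 20, or 2. Female air insert 1 gave 6 of them, and its transcript-length trend (Spearman's rho = -0.67) stands beside them: Gsta3 at 24180 normalised counts (the other 5 inserts 6004 to 7237), Gsta4 at 175702 (38421 to 59593), Gstp1 at 12123 (2542 to 4188), Gsto1 at 144990 (113360 to 124205), Mgst2 at 4252 (568.8 to 997.4) and Mgst3 at 4584 (1352 to 1585). Female air insert 1 was also the highest for the remaining members, which were not flagged on the log2 scale. These were Gsta1 at 400.1 (31.6 to 114.6), Gsta2 at 1391 (221.4 to 523.9), Gstp2 at 136.9 (65.8 to 91.9) and Mgst1 at 7050 (2314 to 3735). Female smoke insert 4, the other library with a length trend, stood out for Mgst3 at 2155 (1206 to 1392). Male smoke insert 2 stood out for Gsta3 at 7825 (5237 to 6080) and for Mgst2 at 430 (229.1 to 257.9), with no length trend (rho = -0.002). The part of the length trend in these values was not tested.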

How the results depend on the processing

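Of 598 recomputed values other than those that leave out 1 library, 534 kept direction and side of the threshold. The 2 members called in female smoke became 4 with array weights (56.9% of all genes called), 0 with inserts 1 to 3 alone (4.84%), 5 with inserts 4 to 6 alone (46.1%) and 3 by edgeR (34.5%) and DESeq2 (38.3%). The 3 called in male smoke became 5 with array weights (49.3%) and 4 by edgeR (22.8%) and DESeq2 (27.9%), both without male smoke insert 5. The difference in response between female and male cultures, called for 0 members, was called for 1 with array weights (17.9%), for 1 over 22 libraries (6.2%), and for 0 to 1 with 1 library left out (1 without female air insert 1, 3.18%). Between the insert sets, the 4 members called in female air became 2 over 22 libraries and 0 to 7 with 1 library left out (0 without female air insert 1 or insert 4), and the 4 in male smoke became 7 over 22 libraries and 2 to 7 with 1 left out (2 without male smoke insert 3 or insert 6). The share of all genes called with 1 library left out moved too. It ran from 2.4% to 23.9% in female air and from 1.99% to 12.8% in male smoke. Direction turned only for values that were not called over 24 libraries. In females these were Gsta2 at -0.03 (inserts 1 to 3 alone); Gsta3 at 0.05 and Mgst3 at 0.02 (inserts 4 to 6 alone); Gsta4 at -0.056 (quantile scaling), -0.352 (inserts 1 to 3 alone), -0.033 (edgeR) and -0.007 (DESeq2). Gstp1 had 0.064 with array weights, 0.056 over 22 libraries, 0.13 in inserts 4 to 6 alone and -0.38 to 0.07 with 1 library left out. Mgst2 had 0.33 with array weights, 0.27 over 22 libraries, 0.18 with a length curve subtracted, 0.665 in inserts 4 to 6 alone (limma adjusted p = 0.02) and -0.20 to 0.38 with 1 library left out. In males Gsta2 had -0.40 with array weights and -0.24 in inserts 4 to 6 alone, Gsta4 0.129, 0.18 and -0.184 to 0.028 with 1 library left out, and Gstp2 -0.41, -0.108 and -0.056 to 0.366; Mgst3 had -0.029 to 0.218 with 1 left out. The female minus male response of Gsta1 had 0.967 with array weights, 0.034 over 22 libraries, 1.17 in inserts 4 to 6 alone and -0.68 to 0.11 with 1 left out, and its female minus male difference in air -0.056 (quantile scaling), -0.397 (array weights), -0.219 (22 libraries), -0.047 (length curve) and -0.219 to 0.505 with 1 left out. The cause of these changes was not tested. Smoke and air inserts of the same number had deviations that correlated at -0.206 to 0.367 in females and -0.242 to 0.124 in males, over 6 pairs each. In females 2 smoke inserts and in males 1 correlated best with their own number. So few pairs cannot decide whether inserts of the same number belong together. With the insert number as a replicate block 2 members were called in female smoke (33.5% of all genes) and 3 in male smoke (20.7%). In the same fit 0 were called for the female minus male response (0.827%) and 7 for female against male air (38.4%). Depth limits Gstp2 most, which had 24.3 to 136.9 normalised counts.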
